A study of Mus musculus with 15 samples.

Results

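The interferon-γ (IFN-γ) induced GTPases described here are the 10 mouse genes Gbp2, Gbp3, Gbp4, Gbp5, Gbp6, Gbp7, Igtp, Iigp1, Irgm1 and Irgm2, chosen by their symbols and not by any measured value. All 10 were found among the genes counted. The CD4+ T cells came from the T cell transfer model of colitis, in which naive CD4+ T cells are injected into Rag2-deficient mice that lack T and B cells of their own. All donors were C57BL/6 littermates with floxed Prkaa1, the gene of the AMPKα1 subunit of AMP-activated protein kinase, which senses the energy state of the cell. Per the study's methods, mice were generally 6 to 8 weeks old when used. WT donors carried the floxed alleles without Cre, and KO donors carried them with CD4-Cre, which is active from the T cell precursor stage in the thymus. T cells were sorted 6 weeks after transfer from mesenteric lymph nodes (mLN), which drain the gut, and from spleen, and 15 samples were sequenced, with 4 WT spleen, 4 KO spleen, 3 WT mLN and 4 KO mLN samples. A WT mLN sample had been left out by the study at quality control, and no WT mLN sample numbered 3 was analysed here.

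IFN-γ, made by T helper 1 cells among others, binds a receptor of the subunits Ifngr1 and Ifngr2, and the kinases Jak1 and Jak2 then pass the signal to the nucleus. Its target genes carry gamma-activated sites (GAS), and among the first of them is Irf1, a transcription factor that binds interferon response elements. The GTPases encoded by the 10 genes are among the most strongly induced targets and act in cell-autonomous defence against bacteria and parasites that live inside vacuoles. The guanylate-binding proteins (Gbp genes) coat and break such vacuoles or the bacteria in them, and Gbp5 is also known for its part in inflammasome activation. Of the immunity-related GTPases, Iigp1 is an effector loaded onto vacuoles, whereas Irgm1, Irgm2 and Igtp (also known as Irgm3) are regulators that sit on the membranes of the cell itself. T cells express these genes too, so their mRNA is commonly read as a trace of IFN-γ received by a cell. The part of type I interferon, whose targets are given below, in the levels of the 10 genes was not tested.

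Most of the genes lie in clusters (GRCm38, GENCODE M21). Gbp5 (chr3:142493978-142522344), Gbp7 (chr3:142530342-142550149), Gbp3 (chr3:142560026-142573209) and Gbp2 (chr3:142620602-142638008) follow each other on the plus strand of chromosome 3. Gbp4 (chr5:105115767-105139586) and Gbp6 (chr5:105270702-105293698) lie on the minus strand of chromosome 5. Igtp (chr11:58199556-58207591) and Irgm2 (chr11:58199618-58222782) overlap on the plus strand of chromosome 11, and Irgm1 (chr11:48861968-48871683) lies apart from them on the minus strand.

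RefSeq promoters (250 bases before to 50 after the start) were at hand for 7 of the 10 genes. All 7 held an IRF-type element, spelled GAAANNGAAA and searched on both strands. Counted by promoter, 7 of 8 held it, against 3.43% of the 32817 mouse promoters searched. The promoter without it was a second entry of Gbp3. A GAS-type element, spelled TTCNNNGAA, which reads the same on both strands, lay in 4 of the 7 genes (Gbp5, Gbp7, Igtp and Irgm2), against 8.29% of all promoters, and both elements together lay in 0.451% of all promoters. Of the 7 other interferon-inducible GTPase genes with a promoter entry, 5 held the IRF-type and 4 the GAS-type element, and the promoter of Ifngr1 held neither. The sequences are shown because they carry these elements close to the start of genes that varied together below; they run 5′ to 3′ on the strand of the gene (GRCm38.p6), with IRF-type and GAS-type matches in capitals. IRF-type matches on the opposite strand read as the reverse complement, and the pairs of matches in Gbp3 and in Irgm1 share 4 bases.
Gbp5, chr3:142496754-142496898, plus strand: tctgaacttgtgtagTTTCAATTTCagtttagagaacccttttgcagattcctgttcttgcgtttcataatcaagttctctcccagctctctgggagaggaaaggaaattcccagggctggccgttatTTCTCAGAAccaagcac
Gbp7, chr3:142530226-142530335, plus strand: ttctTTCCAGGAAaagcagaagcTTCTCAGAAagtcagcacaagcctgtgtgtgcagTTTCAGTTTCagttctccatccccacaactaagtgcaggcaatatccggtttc
Gbp3, chr3:142559934-142560043, plus strand: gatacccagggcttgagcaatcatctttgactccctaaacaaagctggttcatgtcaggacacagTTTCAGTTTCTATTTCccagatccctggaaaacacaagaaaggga
Gbp2, chr3:142620553-142620631, plus strand: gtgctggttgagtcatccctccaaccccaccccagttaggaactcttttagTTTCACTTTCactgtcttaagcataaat
Irgm1, chr11:48871435-48871464, minus strand: ctagcctgtttcaaGAAATAGAAACCGAAA
Igtp, chr11:58199446-58199555, plus strand: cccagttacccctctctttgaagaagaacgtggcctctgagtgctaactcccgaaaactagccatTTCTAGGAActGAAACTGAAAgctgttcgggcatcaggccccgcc
Irgm2, chr11:58214867-58214976, plus strand: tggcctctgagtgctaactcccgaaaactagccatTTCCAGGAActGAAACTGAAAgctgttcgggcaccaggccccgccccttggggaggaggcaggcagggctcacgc

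In GENCODE, whose transcripts can start further upstream than those of RefSeq, the windows of Gbp7 and Igtp lay wholly before the gene, those of Gbp5 and Irgm2 lay in an intron of the gene, that of Irgm1 lay in an exon, and those of Gbp3 and Gbp2 reached 18 and 30 bases into the first exon. A second GAS-type match of Gbp5 lay upstream of its window. In Igtp and Irgm2 a GAS-type and an IRF-type match followed each other at the same distance within a nearly identical stretch. In Gbp7, a pair of GAS-type matches stood upstream of the IRF-type match. A match describes letters only, and binding was not measured.

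Depth was even, with 9363940 to 11283439 reads on genes per sample, so that the lowest member count in any sample was 193 reads (Gbp5). In such bulk samples, fewer cells that express a gene and less RNA per cell cannot be told apart. Prkaa1 checked the labels: it read 46.3 to 54.1 CPM (counts scaled to the same total of gene reads, 1000000, in each sample) in WT spleen and 18.4 to 21.7 CPM in KO spleen, and 49.0 to 60.9 CPM in WT mLN against 21.4 to 32.2 CPM in KO mLN. T cell markers (7 of 7 detected) summed to 6281 to 7673 CPM in all groups, whereas the 5 B cell markers summed to at most 8.32 CPM. Globin and the other erythroid markers (5 of 5 detected) were high in WT spleen replicates 3 and 4 and in WT mLN replicate 4, reaching 1837 CPM in WT spleen and 788 CPM in WT mLN against at most 104 CPM in KO spleen and 70.6 CPM in KO mLN. The 8 monocyte or macrophage markers summed to 120.8 to 218 CPM in WT spleen, 131 to 382 CPM in KO spleen, 51.7 to 228 CPM in WT mLN and 82.4 to 101 CPM in KO mLN. In mLN the T cell sums were 7419 to 7632 CPM in KO and 7019 to 7366 CPM in WT, and 3 other marker sums did not overlap between the genotypes either: dendritic cell markers (5 genes) read 30.3 to 46.0 CPM in KO and 20.4 to 28.3 CPM in WT, CD8 T cell markers (2 genes) 18.9 to 28.2 and 7.18 to 11.6 CPM, and neutrophil markers (4 genes) 16.4 to 37.1 and 44.0 to 60.8 CPM. In spleen, the sums of the 7 stromal or endothelial markers did not overlap, at 65.8 to 92.3 CPM in KO and 94.7 to 111 CPM in WT. Macrophages and dendritic cells express these GTPases as well, and the part of such cells in the values was not tested.

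All 10 GTPases were expressed in every sample of every group (plot of levels by sample). Exon length was that of all annotated exons of a gene merged, which for some genes exceeded the longest transcript. Per kilobase of exon, Igtp was by far the most abundant, with a mean of 214 ± 64.8 CPM per kilobase (SD, n = 4) in WT spleen, 225 ± 41.1 (n = 4) in KO spleen, 234 ± 57.1 (n = 3) in WT mLN and 238 ± 33.5 (n = 4) in KO mLN, without overlap with the next gene, Gbp2, in any group. Gbp2 read 92.7 ± 26.2 CPM per kilobase in WT spleen and came next in all 4 groups. Gbp4 and Gbp7 followed, with Gbp4 ahead in both spleen groups (60.5 ± 23.3 in WT, 74.7 ± 6.01 in KO) and Gbp7 ahead in both mLN groups (65.7 ± 9.84 in WT, 63.2 ± 9.73 in KO). Their samples overlapped in WT spleen and KO mLN and did not overlap in KO spleen and WT mLN. The merged exons of Gbp4 (7494 bases) were longer than its longest transcript (4538 bases), whereas those of Gbp2 (2516) and Gbp7 (5614) were not. The places of Gbp4 beside Gbp2 and Gbp7 therefore depend on the length used. Irgm1, Irgm2, Gbp3 and Iigp1 formed a middle range of 20.7 to 41.1 CPM per kilobase in which most neighbours overlapped, the exceptions being Irgm1 over Irgm2 in both mLN groups. Gbp6 (5.57 to 10.6) and Gbp5 (4.25 to 4.5) were lowest in every group, and their samples did not overlap in KO spleen and KO mLN.

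**Figure D1:**
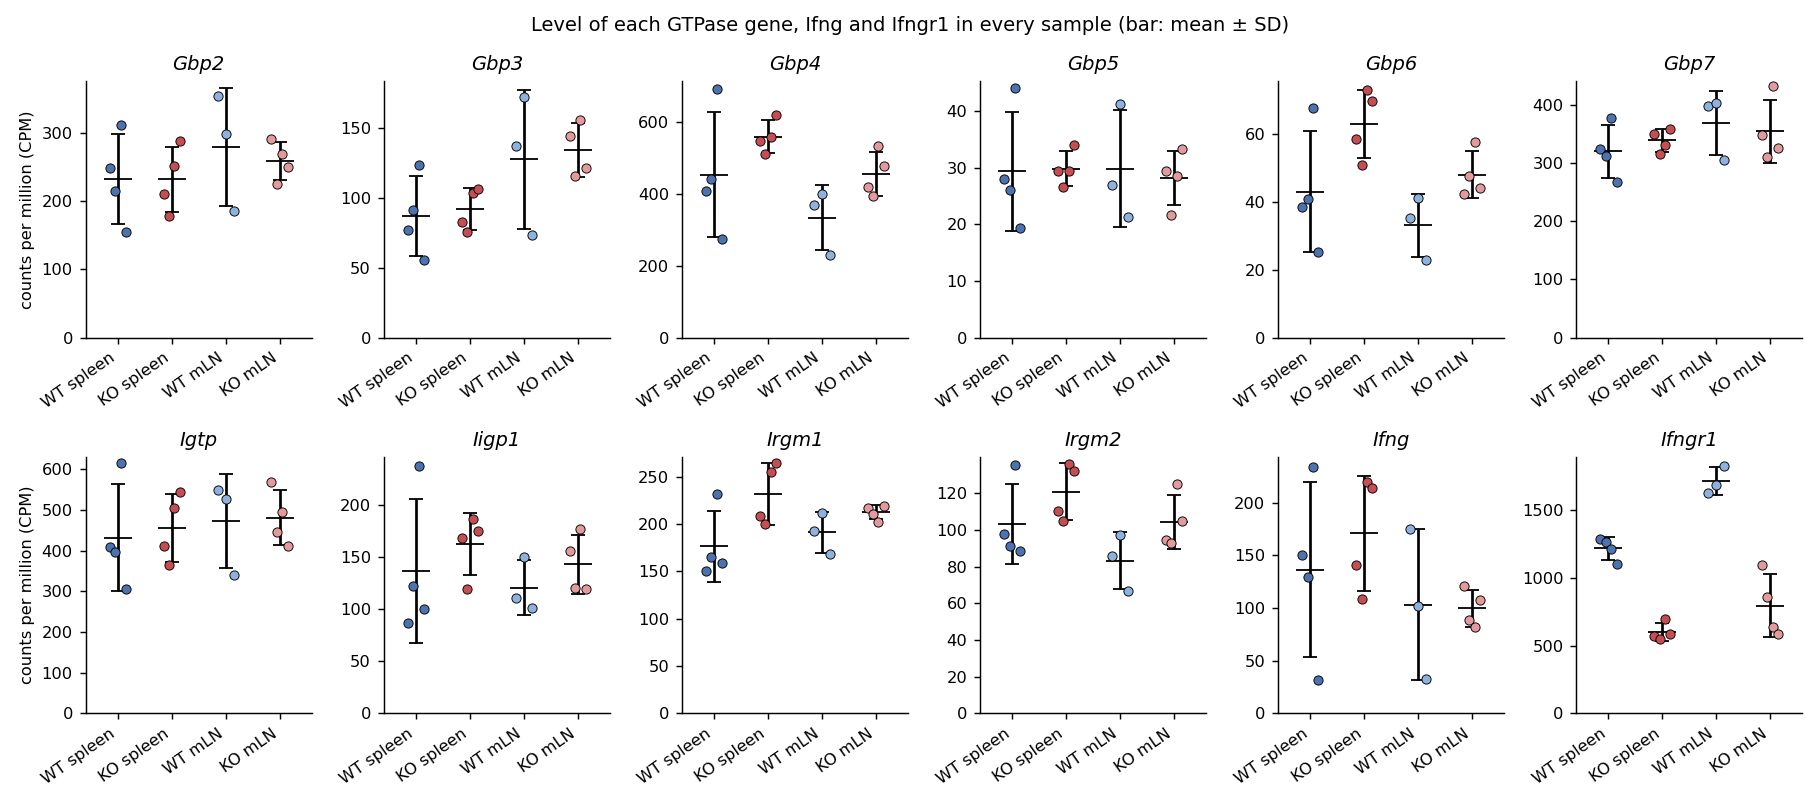
CPM (vertical axes from 0) of the 10 GTPase genes, Ifng and Ifngr1 in every sample, by group on the horizontal axis; points are samples and bars are mean ± SD. Ifngr1 of KO samples lies below that of WT samples in both organs, whereas the GTPases of KO and WT samples overlap in every panel except Gbp6 in mLN.

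The first comparison asked whether the GTPases differed between KO and WT T cells, beside a receptor subunit that did. Ifngr1, the ligand-binding subunit, read 1290.0, 1265, 1214 and 1102 CPM in WT spleen and 569, 547, 695 and 588 CPM in KO spleen. In mLN it read 1628, 1687 and 1831 CPM in WT and 1095, 860.2, 640.3 and 582 CPM in KO. All KO values lay below all WT values of the same organ. With edgeR's quasi-likelihood test and Benjamini-Hochberg adjustment over all genes tested, Ifngr1 fell by 1.01 on the log2 scale in spleen (SE 0.0958, adjusted p = 0.00245) and fell by 1.12 in mLN (SE 0.185, adjusted p = 0.0326). In mLN this call was kept in 1 of 7 fits that left out a sample, with log2 fold changes of -1.32 to -0.98 and adjusted p of up to 0.135; in spleen it was kept in 8 of 8.

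Of the GTPases, 0 of 10 passed the adjusted p limit of 0.05 in either organ, where 1.3% of all 14254 genes tested in spleen and 0.641% of all 14359 genes tested in mLN did. At an unadjusted p under 0.05 there was 1 GTPase in spleen (Irgm1) against 20.5% of all genes, and there were 2 in mLN (Gbp4 and Gbp6) against 15.7%. DESeq2 called 0 of 10 in either organ as well. The log2 fold changes of KO over WT were above 0 for 10 of 10 genes in spleen (median 0.17, range 0.01 to 0.56) and for 7 of 10 in mLN (median 0.10, range -0.12 to 0.52), beside a median of -0.004 over all genes in each organ. The lower ends of the 95% intervals were at least -0.47 in spleen and -0.58 in mLN, above -1 for 10 of 10 genes in both organs (plot of KO against WT). A fall of the size estimated for Ifngr1 therefore lay outside the interval of each GTPase.

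**Figure D2:**
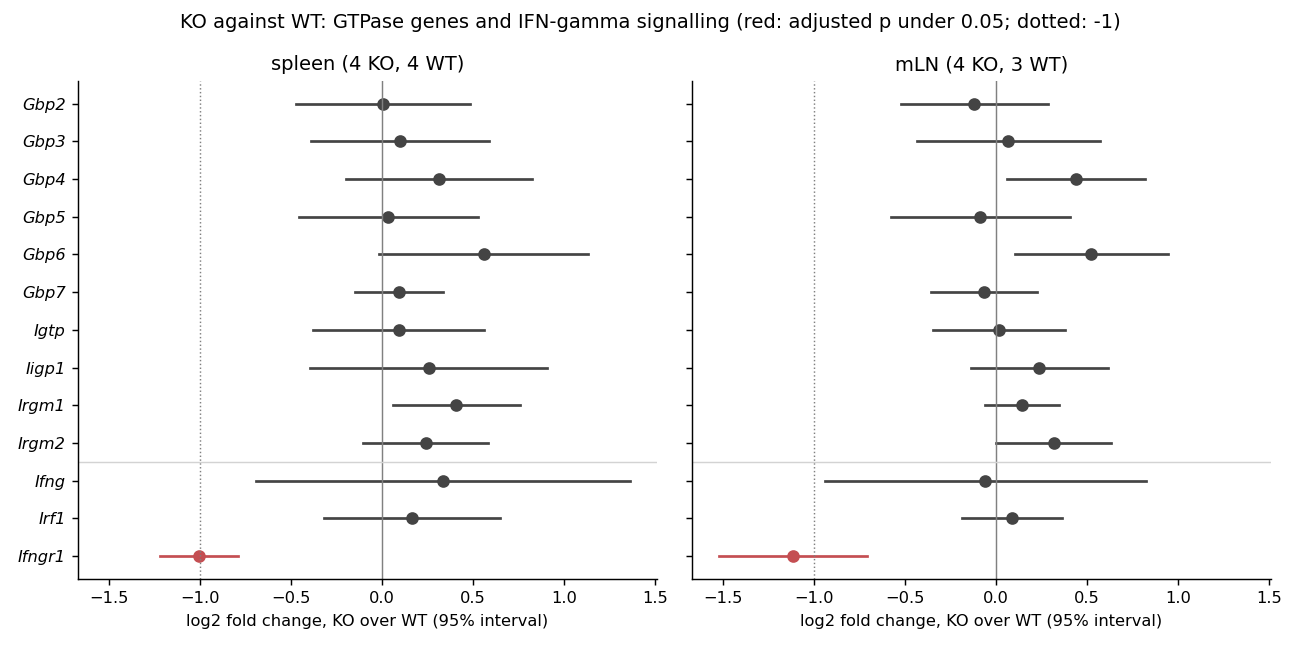
Log2 fold change of KO over WT (horizontal axis) with 95% intervals for the 10 GTPases and for Ifng, Irf1 and Ifngr1, in spleen (left) and mLN (right); red marks an adjusted p under 0.05 and the dotted line marks -1. Every GTPase interval ends above -1, and Ifngr1 is the only gene drawn in red.

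Among the guanylate-binding proteins, the chromosome 3 genes showed small differences in both organs. Gbp2 read 249, 216, 313 and 155 CPM in WT spleen and 211, 178, 252 and 288 CPM in KO spleen, and 355, 299 and 185 CPM in WT mLN against 292, 226, 269.8 and 249.9 CPM in KO mLN. The groups overlapped in both organs, with log2 fold changes of 0.01 (SE 0.216, adjusted p = 0.99) in spleen and -0.12 (SE 0.184, adjusted p = 0.807) in mLN by edgeR. Gbp7, known for a role in the oxidative defence of phagocytes, read 267 to 377 CPM in WT spleen and 316 to 359.6 CPM in KO spleen, and 305 to 404 CPM in WT mLN and 311 to 433 CPM in KO mLN. Its intervals were the narrowest in spleen, at -0.15 to 0.34, and ran from -0.36 to 0.22 in mLN. Gbp5, at 19.4 to 44.1 CPM in all samples, had log2 fold changes of 0.03 in spleen and -0.09 in mLN, and Gbp3 had 0.10 and 0.07.

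Gbp6, on chromosome 5, had the largest positive value of the 10 genes in both organs, and its neighbour Gbp4 the next largest in mLN; neither passed the test. Gbp6 read 38.4, 40.8, 67.9 and 25.2 CPM in WT spleen and 58.5, 51.0, 73.0 and 69.7 CPM in KO spleen. In mLN it read 35.3, 41.2 and 23.02 CPM in WT and 42.5, 47.7, 57.9 and 44.1 CPM in KO. Every KO mLN sample lay above every WT mLN sample, and Gbp6 was the single GTPase of which this held in mLN (7.49% of all genes had a KO group wholly above the WT group), while in spleen, where 5.68% of all genes did so, 0 GTPases had the KO group wholly above the WT group. The log2 fold changes of Gbp6 were 0.56 (SE 0.259, adjusted p = 0.256) in spleen and 0.52 (SE 0.191, adjusted p = 0.226) in mLN by edgeR.

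Gbp4 read 409, 441, 691 and 273 CPM in WT spleen and 547, 512, 559 and 620.4 CPM in KO spleen. In mLN it read 369, 401 and 229.9 CPM in WT and 418, 393, 532 and 476 CPM in KO. WT spleen was the more spread group, with its replicate 3 above and its replicate 4 far below all KO samples. The log2 fold changes were 0.31 (SE 0.231, adjusted p = 0.486) in spleen and 0.44 (SE 0.171, adjusted p = 0.252) in mLN by edgeR.

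The immunity-related GTPases were likewise not called. Irgm1, needed for the control of the other members on cell membranes, read 150.0, 165, 232 and 159 CPM in WT spleen and 208, 199.8, 255 and 265 CPM in KO spleen, where only WT replicate 3 reached the KO range. Its log2 fold change in spleen was 0.41 (SE 0.158, adjusted p = 0.183 by edgeR), and in mLN, at 169 to 212 CPM in WT and 203 to 219 CPM in KO, it was 0.14 (SE 0.0929, adjusted p = 0.52). Without WT spleen replicate 3, the sample with the highest GTPase levels and the highest erythroid markers of WT spleen, 2 of 10 GTPases were called higher in KO spleen, where 0.976% of all genes were: Irgm1 (log2 fold change 0.58, adjusted p = 0.0372) and Gbp6 (0.89, adjusted p = 0.0419). With both high-globin WT spleen replicates left out, 0 of 10 were called. Without the filter on low counts, 3 of 10 were called higher in KO spleen (Gbp4, Gbp6 and Irgm1; 1.92% of all genes) and 2 of 10 in KO mLN (Gbp4 and Gbp6; 1.25%).

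Igtp read 409.9, 397, 615 and 305 CPM in WT spleen and 410.4, 364, 506 and 543 CPM in KO spleen, with a log2 fold change of 0.09 (SE 0.211), and 0.02 (SE 0.165) in mLN. Irgm2 ranged from 88.5 to 136 CPM in WT spleen and from 105 to 136 CPM in KO spleen (log2 fold change 0.24), and from 66.6 to 97.4 CPM in WT mLN and from 92.7 to 125 CPM in KO mLN (0.32, adjusted p = 0.321 by edgeR). Iigp1, the vacuole-loading effector, was the most variable GTPase of WT spleen, at 86.5 to 238 CPM (coefficient of variation 50.5%), against 119 to 186 CPM in KO spleen (18.2%). Its log2 fold changes were 0.26 in spleen and 0.24 in mLN, with 95% intervals from -0.39 to 0.91 and from -0.14 to 0.61.

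The genotype by organ interaction, which asks whether the KO effect differed between organs, was called for 0 of 10 GTPases and for 0 of all 15438 genes tested by edgeR (0%), with 4.22% of all genes and 0 GTPases at an unadjusted p under 0.05; DESeq2 called 2 genes. The interaction estimates of the GTPases ran from -0.27 to 0.12 on the log2 scale, with 95% intervals within -0.84 to 0.81. These estimates treated all 15 samples as independent. With samples of equal genotype and number as a block, edgeR called 0 GTPases and 3 genes.

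The other genes of IFN-γ signalling were examined by role. Of the 17 genes listed and tested, 1 was called higher and 1 lower in KO spleen (0.547% and 0.751% of all genes), and 0 higher and 1 lower in KO mLN (0.348% and 0.292%), the lower gene being Ifngr1 each time. Ifng, the ligand, read 151, 129, 233 and 31.6 CPM in WT spleen and 141, 108, 219.8 and 214 CPM in KO spleen, and 175, 102 and 32.2 CPM in WT mLN against 121, 88.8, 82.2 and 107 CPM in KO mLN. Replicate 4 of WT stood far below all other samples in both organs. The log2 fold changes of Ifng were 0.33 (SE 0.464) in spleen and -0.06 (SE 0.4) in mLN. Ifngr2, the signalling subunit, was at only 3.03 to 10.8 CPM in any sample and showed log2 fold changes of -0.05 and 0.09.

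The kinases Jak1 (log2 fold changes -0.10 in both organs) and Jak2 (0.00 and 0.10) were not called. Among the transcription factors, Irf9, a partner of Stat2 in the complex used by type I interferon, was the gene called higher in KO spleen, at 153 to 161 CPM against 112 to 125 CPM (log2 fold change 0.43, SE 0.0608, adjusted p = 0.0139 by edgeR). This call was kept in 5 of 8 fits that left out a sample (adjusted p of up to 0.0569) and was lost with the replicate number as a block (adjusted p = 0.0773). In mLN, Irf9 read 161 to 182 CPM in KO and 125 to 155 CPM in WT (0.26, adjusted p = 0.235).

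Irf1 had log2 fold changes of 0.16 and 0.09, Stat2 of 0.31 and 0.56 (adjusted p = 0.0972 and 0.0765), Irf2 of 0.15 and 0.18, Irf8 of 0.18 and 0.49, and Batf2, at 1 to 3.89 CPM, of 0.30 and -0.71, in spleen and mLN in that order. None of these passed the test by edgeR. Of the inhibitors, Socs1, which blocks Jak kinases and is itself induced by IFN-γ, had -0.14 and 0.30. Socs3 had -0.61 and -0.49 (adjusted p = 0.0729 and 0.197), Ptpn6 had 0.33 and 0.36, Ptpn2 had -0.14 and -0.16, and Pias1 had -0.13 and -0.15, and 0 of these 5 inhibitors were called.

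The levels of the 10 GTPases moved together from sample to sample. As a summary, the log2 CPM of each gene relative to its own mean over the 15 samples was averaged over the 10 genes. This mean was -0.21, -0.16, 0.45 and -0.56 in WT spleen, 0.05, -0.12, 0.24 and 0.31 in KO spleen, 0.01, 0.19 and -0.51 in WT mLN, and 0.11, -0.09, 0.25 and 0.03 in KO mLN. WT spleen replicate 3 was the highest of its group for 10 of 10 genes and WT spleen replicate 4 the lowest for 8 of 10. WT mLN replicate 4 was the lowest of its group for 10 of 10 genes, and KO spleen replicate 2 was the lowest of its group for 10 of 10. The SD over samples was 0.42 in WT spleen and 0.36 in WT mLN, against 0.20 in KO spleen and 0.14 in KO mLN.

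The 2 WT samples with the lowest mean were also those with the lowest Ifng, at 31.6 and 32.2 CPM, and the sample with the highest mean had the highest Ifng, at 233 CPM (plot of mean GTPase level against Ifng and Ifngr1). Over the 15 samples, Pearson's r with the mean GTPase level was 0.79 for Ifng, 0.86 for Irf1 and -0.27 for Ifngr1. With the group means removed, r was 0.84 for Ifng, 0.95 for Irf1 and 0.11 for Ifngr1. All these r values were computed on log2 CPM scaled with TMM factors and with a prior count of 2 added, and not on the values plotted. These are descriptions over samples that share groups, and the 3 samples named carry much of the spread. All 3 are among the WT samples with high erythroid markers, whose part in these values was not tested.

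**Figure D3:**
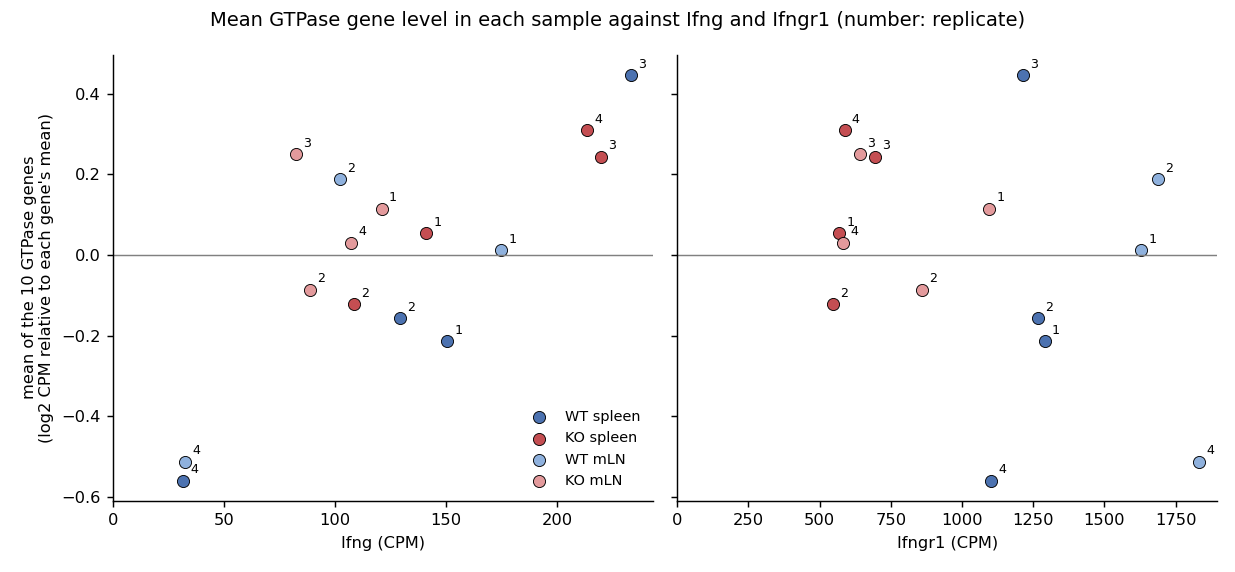
Mean log2 CPM of the 10 GTPases relative to each gene's mean (vertical axis) against Ifng (left) and Ifngr1 (right) in CPM, 1 point per sample, coloured by group and numbered by replicate. WT replicate 4 of both organs lies lowest at 31.6 and 32.2 CPM of Ifng, whereas KO spleen (547 to 695 CPM of Ifngr1) and WT spleen (1102 to 1290.0 CPM) span overlapping GTPase levels.

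Among the 5 genes other than the GTPases whose log2 CPM was most like their mean over the 15 samples were 1110038F14Rik (r = 0.93), the class Ib histocompatibility gene H2-T23 (r = 0.92), Gm4841 (r = 0.90) and Bloc1s4 (r = 0.88). H2-T23 read 408 CPM in WT spleen replicate 3 and 257 CPM in WT spleen replicate 4. Gm4841 was low throughout, at 2.59 to 9.39 CPM. Each GTPase is itself part of the mean, which raises its r, so these values are not comparable with those of the other genes. Of the GTPases, Igtp lay closest to the mean (r = 0.90) and Gbp3 furthest from it (r = 0.77). With group means removed, Gbp3 instead had the highest r of the 10 (0.96), followed by Gbp6 (0.96) and Gbp4 (0.96).

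The organs were compared within each genotype. In WT cells, 0 of 10 GTPases were called between mLN and spleen when all 7 samples were treated as independent, where 20.5% of all 14515 genes were called by edgeR; 0 GTPases had an unadjusted p under 0.05 against 34.6% of all genes, and DESeq2 called 0. WT spleen and mLN samples of the same replicate number deviated together, so the replicate number was also fitted as a block, in which spleen replicate 3 has no mLN partner and adds nothing to the organ difference. With this block, 6 of 10 GTPases were called higher in mLN and 0 lower, against 14.6% of all genes called higher and 30% called in either direction.

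The 6 were Gbp3 (log2 difference 0.78, SE 0.1, adjusted p = 0.000567), Gbp2 (0.47, SE 0.0724, adjusted p = 0.00148), Igtp (0.38, SE 0.0721, adjusted p = 0.00387), Gbp7 (0.33, SE 0.0662, adjusted p = 0.00488), Irgm1 (0.32, SE 0.0775, adjusted p = 0.0127) and Iigp1 (0.27, SE 0.0846, adjusted p = 0.037). Gbp3 read 76.9, 91.5 and 55.3 CPM in WT spleen replicates 1, 2 and 4 and 137, 172 and 73.6 CPM in the mLN samples of the same numbers, while spleen replicate 3 read 123 CPM. Each of the 6 genes was higher in mLN in 3 of 3 pairs, although for Iigp1 the smallest difference was 0.01. Gbp4 was lower in mLN in 3 of 3 pairs, by 0.14 to 0.25 on the log2 scale, and was not called (-0.13, adjusted p = 0.161), and Gbp5, Gbp6 and Irgm2 were not called either (plot of WT pairs). For Iigp1 the unblocked difference had the opposite sign, at -0.15 (SE 0.325). With the 3 high-globin WT samples left out, 2 GTPases, Gbp3 and Igtp, were called higher in mLN, where 3.72% of all genes were.

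**Figure D4:**
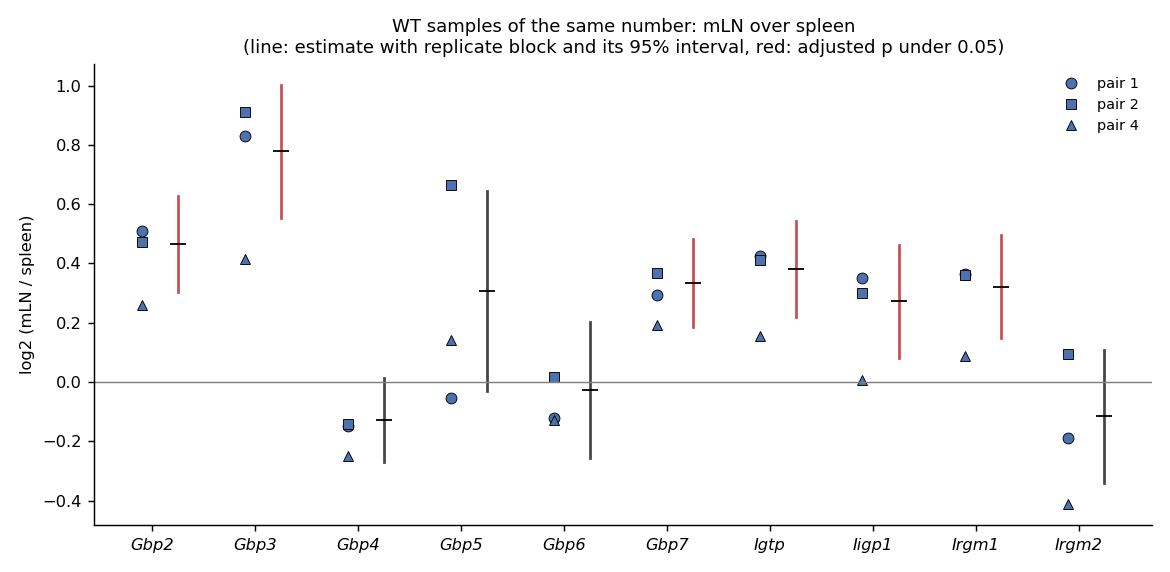
Log2 ratio of mLN over spleen CPM (vertical axis) of each GTPase in the 3 WT pairs of samples of the same number (symbols), beside the estimate with the replicate block and its 95% interval (line; red where the adjusted p is under 0.05). Gbp2, Gbp3, Gbp7, Igtp, Iigp1 and Irgm1 lie above 0 in all 3 pairs, and Gbp4 lies below 0 in all 3.

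In KO cells, 2 of 10 GTPases were called between the organs, 1 in each direction, where 25.3% of all genes were called, 11.4% of the 14240 tested being higher and 13.9% lower in mLN. Gbp3 read 82.7, 75.8, 104 and 106 CPM in KO spleen and 144, 116, 156 and 121 CPM in KO mLN, without overlap (log2 difference 0.54, SE 0.137, adjusted p = 0.0134 by edgeR); 13.3% of all genes had an mLN group wholly above the spleen group. Gbp4 read 547, 512, 559 and 620.4 CPM in KO spleen and 418, 393, 532 and 476 CPM in KO mLN and was lower there (-0.30, SE 0.099, adjusted p = 0.0453), with the groups overlapping through mLN replicate 3. Gbp6 had the same sign (-0.40, SE 0.138, adjusted p = 0.0568), and was called lower by DESeq2 (adjusted p = 0.0394), without the filter on low counts (0.00487), with a minimum of 10 counts (0.0458) and with the replicate block (0.0272). Gbp3 was called in all 8 fits that left out a sample and Gbp4 in 2 of them; when all 15 samples shared 1 estimate of the spread, neither was called (adjusted p = 0.102 and 0.38).

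Of the 17 signalling genes, 2 were called lower and 1 higher in KO mLN than in KO spleen, where 13.9% and 11.4% of all genes were. Ifng and Irf1 were lower (log2 differences -0.78, adjusted p = 0.022, and -0.34, adjusted p = 0.0241, by edgeR). Socs1 was higher, at 229 to 288 CPM against 165 to 177 CPM (0.60, adjusted p = 0.000169). In WT cells 1 was called higher and 1 lower in mLN, the lower being Stat2 (-0.44, adjusted p = 0.034 by edgeR). Over all 14515 genes tested in WT, 1408 were called higher and 1572 lower. Ifngr1 was higher in WT mLN than in WT spleen (0.53, adjusted p = 0.00381; 0.41 and adjusted p = 0.0544 without the 3 high-globin samples) and had a difference of 0.41 in KO cells (adjusted p = 0.115).

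A grouping by place in the genome was chosen after the values were seen and is therefore given without a test. Of the 10 GTPases, the chromosome 5 and chromosome 3 Gbp genes differed in their balance (plot of ratios). The chromosome 5 sum held only Gbp4 and Gbp6, and Gbp4 outweighed Gbp6 in it. Other chromosome 5 Gbp genes did not all go the same way. Gbp11 (1.47 to 12.1 CPM) was higher in mLN, by 1.38 in WT and 1.27 in KO (adjusted p = 0.0540 and 0.0211 by edgeR). Gbp8, Gbp9 and Gbp10 were lower in mLN in both genotypes and were not called. The summed CPM of Gbp4 and Gbp6 over that of Gbp2, Gbp3, Gbp5 and Gbp7 was 0.659, 0.746, 0.885 and 0.601 in WT spleen and 0.899, 0.945, 0.882 and 0.876 in KO spleen. In mLN it was 0.441, 0.482 and 0.432 in WT and 0.565, 0.654, 0.665 and 0.712 in KO. All WT mLN samples lay below all spleen samples, all KO mLN samples lay below all KO spleen samples, and within mLN all KO samples lay above all WT samples. The ratio of Gbp3 to Gbp4 was 0.178 to 0.207 in WT spleen, 0.148 to 0.185 in KO spleen, 0.320 to 0.429 in WT mLN and 0.254 to 0.345 in KO mLN, so that every mLN sample lay above every spleen sample.

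**Figure D5:**
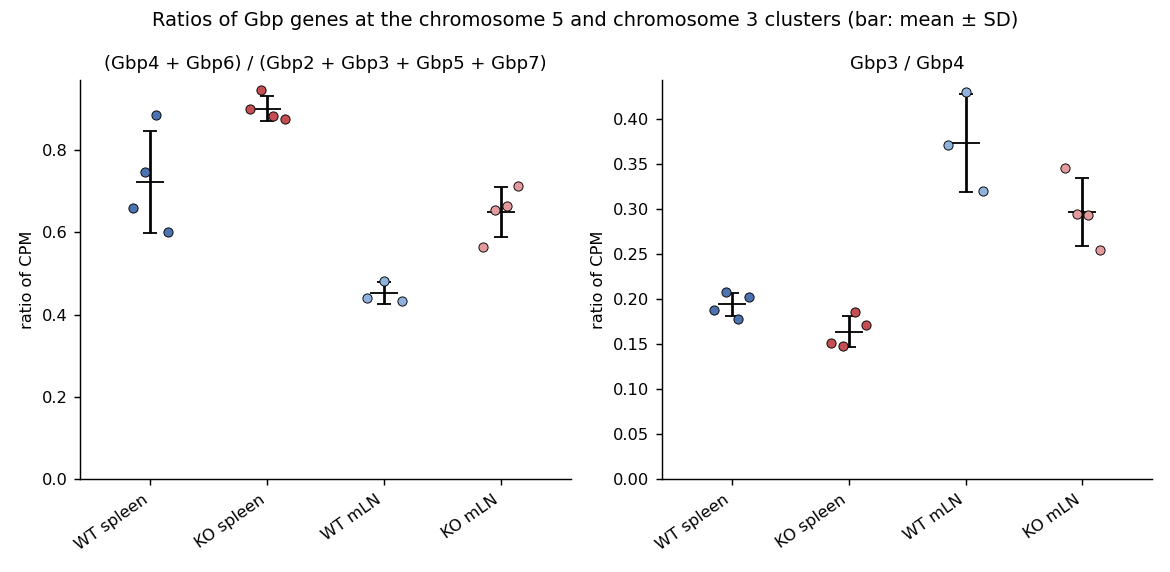
Ratio of summed CPM of the chromosome 5 genes Gbp4 and Gbp6 to the chromosome 3 genes Gbp2, Gbp3, Gbp5 and Gbp7 (left), and of Gbp3 to Gbp4 (right), by group; points are samples, bars are mean ± SD and vertical axes start at 0. The left ratio is 0.432 to 0.482 in WT mLN and 0.565 to 0.712 in KO mLN, and the right ratio is higher in every mLN sample than in any spleen sample.

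Of the 16 other interferon-inducible GTPases listed, 15 were tested, of which 1 was called higher in KO spleen (0.547% of all genes) and 2 in KO mLN (0.348%), with medians of 0.21 and 0.29 on the log2 scale. The called genes were Mx1 and Mx2, antiviral GTPases that respond chiefly to type I interferon. Mx1 read 11.9 to 23.1 CPM in WT spleen and 28.2 to 35.8 CPM in KO spleen (log2 fold change 0.96, SE 0.195, adjusted p = 0.0475 by edgeR), and 8.21 to 9.67 CPM in WT mLN and 22.8 to 32.5 CPM in KO mLN (1.51, SE 0.191, adjusted p = 0.0173). Mx2 read 1.09 to 1.66 CPM in WT mLN and 5.14 to 15.5 CPM in KO mLN (2.86, SE 0.462, adjusted p = 0.0326). The Mx1 call was kept in 1 of 8 fits that left out a sample in spleen (adjusted p = 0.00462 to 0.124) and in 4 of 7 in mLN (0.0269 to 0.0799), and the Mx2 call in 2 of 7. With the replicate number as a block, adjusted p was 0.107 for Mx1 in spleen and 0.116 for both genes in mLN.

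The 18 type I interferon targets had a median log2 fold change of 0.59 in spleen (16 tested, 1 called higher, against 0.547% of all genes, and 0 lower) and 1.03 in mLN (18 tested, 4 called higher, against 0.348%, and 0 lower). Among them, Oas3, which makes the activator of an antiviral RNase, was called in spleen (0.79, adjusted p = 0.0416), and Cmpk2 (1.17) and Usp18 (1.66), an inhibitor of type I interferon signalling, were called in mLN (adjusted p = 0.0173 and 0.0305). With 1 sample left out, Oas3 was called in 1 of 8 fits, Cmpk2 in 4 of 7 and Usp18 in 3 of 7. Oas3 was not called with the block (adjusted p = 0.0714) or without the high-globin samples (0.0662), and Cmpk2 and Usp18 were not called with the block (0.116 each). The dendritic (through Siglech and Itgax), CD8 T cell (through Cd8a alone) and neutrophil (through S100a8) marker sums given above also differed between KO and WT mLN. The other markers of these cell types overlapped between the genotypes in mLN. The part of such cells in these values was not tested. The 15 other IFN-γ targets, such as the antigen presentation genes Tap1 and B2m, had medians of 0.19 in spleen (11 tested) and 0.14 in mLN (12 tested), with 0 called in either organ. Ciita, the master regulator of class II antigen presentation genes, was the single gene of this list whose KO samples all lay below the WT samples, in both organs (6.31% of all genes in spleen and 6.94% in mLN lay so; log2 fold changes -0.80, adjusted p = 0.127, and -1.28, adjusted p = 0.193). The 10 GTPases thus had medians (0.17 and 0.10) close to those of the other IFN-γ targets and below those of the type I interferon targets; these lists were not tested against each other.

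Some of these genes share sequence or exons with other genes, which bears on their counts. Reads that map to several places were left out, and reads ambiguous between genes were counted apart. Of the 75-base windows along the longest transcript, 55.2% of those of Gbp6 occur exactly in transcripts of other genes, mainly Gm43302 and Gbp10, and its exons overlap those of Gm43302 by 1726 bases. The share was 11.4% for Gbp7 (mainly Gm43802), 8.37% for Igtp and 4.28% for Irgm2 (mainly each other, with 162 bases of shared exon), 5.35% for Gbp4, 2.68% for Gbp3, 1.03% for Gbp5, 0.983% for Gbp2 and 0 for Iigp1 and Irgm1. The level of Gbp6 is therefore uncertain. The exons of Gbp7 overlap those of Gm43802 by 637 bases. Windows shared through such overlap were not told apart from windows repeated elsewhere in the genome. Of the other chromosome 5 Gbp genes, Gbp8 and Gbp9, which overlap Gbp4, had log2 fold changes of KO over WT of 0.56 and 0.42 in spleen. In mLN they had 0.35 and 0.73. Gbp10 had 0.93 in spleen and 0.73 in mLN, whereas Gbp11 had 0.04 and -0.06. None of these genes was called in either organ.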

How the data were processed

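Per the labels and the study's methods, mRNA of sorted T cells was sequenced as 75-base single-end reads, and the authors aligned them with STAR 2.6.1a to GRCm38 with GENCODE M23 and deposited raw counts of reads per gene without normalization; multimapping reads were left out and the strand setting is not given in the sources used here. Of the uniquely aligned reads, 58.4% to 63.4% lay on no gene. Symbols and coordinates came from GENCODE M21, where 55240 of the 55421 genes were found.

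Counts were scaled to 1000000 reads on genes (CPM) for description. The counts of all genes were tested with edgeR 4.0.16 (R 4.3.3), using filterByExpr, TMM factors and quasi-likelihood F-tests, with Benjamini-Hochberg adjustment over all genes tested and a limit of 0.05. Each comparison used its own groups, and the interaction used all 15 samples. Alternatives were DESeq2 1.42.0 (the authors also used DESeq2), RLE normalization, other filters on low counts, a fold limit, all samples in 1 fit, a replicate block and leaving out each sample; leaving out the WT samples numbered 4, or the 3 WT samples with high globin, was chosen after seeing the data. The procedure was tested on simulated counts. Python 3.11.15 made the other tables.

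Named genes were the 10 GTPases, Prkaa1, the IFN-γ signalling list, in each other list the 2 called genes with the smallest p in each direction and organ, and the 5 genes most like the GTPases. Some of the genes so named are not reported here. Gbp8, Gbp9, Gbp10, Gbp11, Tap1, B2m and Ciita were named after their values were seen. Members and lists were chosen with earlier results of these data known. Replicate numbers come from the labels, which do not say that equal numbers share a mouse. Within WT, spleen and mLN samples of equal number deviated together (r = 0.24 to 0.29 in 3 of 3 pairs). That pairing was therefore used beside the unpaired fit in the WT organ comparison. The p-values otherwise measure the spread between samples.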

Additional observations from a re-analysis of the deposited data

Results flagged for a closer look

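In 84 groups of 4 samples (the 10 GTPases, the 17 IFN-γ signalling genes and Prkaa1), the highest or lowest sample was checked against Dixon's critical value of 0.829, and chance alone would flag about 1 group in 20. There were 2 samples that stood apart. Irf9 read 182 CPM in KO mLN replicate 3, whereas the other 3 samples read 161 CPM. Pias1, listed among the inhibitors of the pathway, read 187 CPM in WT spleen replicate 4, where the GTPases and Ifng were lowest, whereas the other 3 samples read 159 to 160.3 CPM. None of the 10 GTPases was among them, and groups of 3 samples were not checked.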

How the results depend on the processing

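Between KO and WT, 0 of 10 GTPases were called in either organ under DESeq2, RLE normalization, a minimum of 10 counts, a fold limit, all 15 samples in 1 fit and the replicate block. Without the filter on low counts, 3 were called in spleen, 2 in mLN, and 2 between WT organs. Leaving out 1 sample at a time gave 0 to 2 calls in spleen, the 2 appearing without WT spleen replicate 3, and 0 in mLN. Between WT organs, the replicate block gave 6 calls, leaving out the 3 high-globin WT samples 2, leaving out both samples numbered 4 gave 0, and leaving out 1 sample gave 0. Between KO organs, the 2 calls became 0 with a fold limit, 0 with all 15 samples in 1 fit, 1 with RLE normalization and 3 with DESeq2, no filter, a minimum of 10 counts or the replicate block, and 1 to 3 when 1 sample was left out. The interaction called 0 GTPases under each alternative. The cause of these changes was not tested.

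Samples of WT and KO with the same number did not deviate together (r = -0.21 to 0.15 in spleen, -0.05 to 0.00 in mLN), so these blocks share only a number. For KO spleen and mLN samples of equal number, r was 0.03 to 0.26. In 2 of 4 pairs it was higher than with any other KO mLN sample. Whether these KO pairs share a mouse cannot be told from these values. The block took the calls over all genes from 185 to 17 in spleen and from 92 to 1 in mLN, where Ifngr1 (adjusted p = 0.121) was not called; it took WT organ calls from 2980 to 4351 and the interaction from 0 to 3. Calls over all genes were 784 with DESeq2, 1422 with no filter, 85 with all samples in 1 fit, 64 with a fold limit and 12 to 324 with 1 sample left out in spleen, and 563, 913, 500, 47 and 4 to 117 in mLN; a fold limit left 723 and 763 in the organ comparisons, leaving out the high-globin samples left 1472 in WT, and the interaction called 112 with no filter and 2 with DESeq2.

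Signs turned as follows. Under the replicate block, Ifng in KO against WT mLN was 0.28 and Iigp1 between WT organs was 0.27, and without the high-globin samples Iigp1 was 0.36. With 1 sample left out, log2 fold changes of KO over WT in spleen ran from -0.15 to 0.20 for Gbp2, -0.072 to 0.33 for Gbp3, -0.13 to 0.32 for Gbp5, -0.049 to 0.33 for Igtp and -0.054 to 0.42 for Gm4841. In mLN they ran from -0.35 to 0.10 for Gbp2, -0.21 to 0.33 for Gbp3, -0.28 to 0.21 for Gbp5, -0.19 to 0.0010 for Gbp7, -0.17 to 0.15 for Igtp, -0.063 to 0.19 for Irf1, -0.49 to 0.58 for Ifng, -0.040 to 0.14 for 1110038F14Rik and -0.33 to 0.32 for Gm4841. Between WT organs they ran from -0.24 to 0.34 for Gbp5 and -0.33 to 0.28 for Iigp1, and between KO organs from -0.16 to 0.033 for Gbp5, -0.036 to 0.13 for Gbp7 and -0.027 to 0.18 for Igtp. Of the other recomputed log2 fold changes, 880 kept their direction and side of the limit, 34 moved past the limit and 65 no longer passed it, in the same direction. With 3 or 4 samples a group, a gene that was not called may still differ by an amount within its interval.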
